A study of Mus musculus with 1989 samples.

Results

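The DN sorted thymocytes described here are 175 single mouse cells whose labels name them double negative T cells and whose counts over all peaks of the scATAC-seq table sum to 1000 or more. They were chosen from 182 DN cells, and the table holds 1988 cells in all. The smallest totals kept were 1021, 1060 and 1061 counts, and the largest totals left out were 950, 943 and 922. scATAC-seq, the single-cell assay for transposase-accessible chromatin, cuts DNA where it is not covered by nucleosomes, so that reads mark open promoters and enhancers. The thymocytes came from male C57BL/6 mice that were 7 weeks old by their labels, and the comparison groups were 116 DP, 96 CD4 and 91 CD8 sorted cells that passed the same minimum. The gates of the sorts and the animal of each cell are not given in the sources used here. Each sort therefore counts as 1 sample, and ratios and shares are given with exact 95% intervals that cover counting error only, with no test between sorts.

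Double-negative (DN) thymocytes carry neither CD4 nor CD8 and are the youngest T cell precursors in the thymus. Notch signals drive them into the T lineage, genes of the progenitor program are shut, and the Tcrb, Tcrg and Tcrd loci are recombined, after which cells that pass beta selection turn into double-positive (DP) cells and then into CD4 or CD8 single-positive (SP) cells. Gamma-delta T cells, natural killer T cells and other unconventional cells can also lack CD4 and CD8, so a DN sort is a mixture of early precursors and such cells unless further markers are gated.

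A peak counted once per cell in which it had at least 1 count, and such a cell is called an event. A level is the number of events per 100000 events of the same sort in peaks that do not overlap one another. The DN cells gave 508824 such events, the DP cells 233103, the CD4 cells 271644 and the CD8 cells 241952. The median total was 3657 counts per cell in DN and 3959 in DP cells, and that of CD4 cells was 5308. The cell numbers in the DN labels fell into 5 series, called 1000, 2000, 4000, 31000 and 32000 by their first numbers, whose median totals ran from 1263 counts in series 31000 to 10982.5 in series 1000. Only series 4000 and 31000 hold cells of all 4 sorts. No 2 cells were identical, and 8 cells stood apart, 5 of them DN cells, either with over 500 counts in 1 peak or with an unusual share of open peaks in common. Values without them are given beside the Ptcra and Tcrg results. A lower level may come from fewer cells with an open site or from fewer fragments recovered at it in each cell, and these cannot be told apart.

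Of the peaks used, 5 are shown first because the comparisons below turn on them. For each, the central 300 bases of the 4000-bp peak are printed 5′ to 3′ on the plus strand of GRCm38, as read from the RefSeq genome sequence of that build. No exon overlaps any of these windows. Capitals mark 5 short words, each searched on both strands and counted apart from the others, so that 1 base may belong to more than 1 word. They are TGTGGT, which RUNX factors bind, and CAGCTG, an E-box that E proteins bind. They are also AGGAAG, the core of sites for ETS factors, and CTTTGA, the core of sites for TCF-1 and LEF-1. The last is AGATAA, a site of the zinc finger factors of the GATA family. The first 2 windows were more open in DN cells than in DP cells. One lies in an intron of Vmp1 (chr11:86586853-86587152), in a peak that starts 0.845 kb upstream of the hairpin of the microRNA gene Mir21a. The other lies in the Tcrg locus near the constant segment Tcrg-C2 (chr13:19300464-19300763).
Vmp1 intron: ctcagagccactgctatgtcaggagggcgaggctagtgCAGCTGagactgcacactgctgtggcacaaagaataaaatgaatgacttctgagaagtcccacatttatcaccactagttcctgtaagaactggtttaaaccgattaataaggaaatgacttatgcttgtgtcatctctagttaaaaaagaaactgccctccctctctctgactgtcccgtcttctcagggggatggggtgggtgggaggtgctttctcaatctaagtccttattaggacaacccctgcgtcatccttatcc
Tcrg near Tcrg-C2: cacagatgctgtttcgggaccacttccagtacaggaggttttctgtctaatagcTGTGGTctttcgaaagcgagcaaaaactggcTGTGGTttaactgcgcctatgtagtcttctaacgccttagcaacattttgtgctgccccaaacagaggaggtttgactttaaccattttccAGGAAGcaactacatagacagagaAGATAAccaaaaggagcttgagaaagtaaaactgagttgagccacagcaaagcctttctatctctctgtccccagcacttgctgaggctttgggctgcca
The next 2 windows separate DN cells from CD4 or DP cells. They lie in an intron of Notch3 (chr17:32164298-32164597) and 3.84 kb upstream of the start of Cd8a (chr6:71369435-71369734).
Notch3 intron: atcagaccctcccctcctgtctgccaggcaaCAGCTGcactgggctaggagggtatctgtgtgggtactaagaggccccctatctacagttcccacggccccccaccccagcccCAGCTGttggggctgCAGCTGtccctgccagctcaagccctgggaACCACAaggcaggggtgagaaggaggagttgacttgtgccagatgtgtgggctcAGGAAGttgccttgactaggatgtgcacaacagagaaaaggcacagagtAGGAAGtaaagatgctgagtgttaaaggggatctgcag
Cd8a upstream: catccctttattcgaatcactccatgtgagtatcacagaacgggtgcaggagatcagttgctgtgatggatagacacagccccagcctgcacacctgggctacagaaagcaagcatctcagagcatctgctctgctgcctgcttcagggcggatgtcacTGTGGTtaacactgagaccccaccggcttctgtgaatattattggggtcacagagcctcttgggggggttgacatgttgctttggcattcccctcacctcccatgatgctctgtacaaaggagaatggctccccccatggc
The last window, in an intergenic peak 78.6 kb from the start of Rasgrp1 (chr2:117421492-117421791), was less open in DN cells than in each other sort.
Rasgrp1 intergenic: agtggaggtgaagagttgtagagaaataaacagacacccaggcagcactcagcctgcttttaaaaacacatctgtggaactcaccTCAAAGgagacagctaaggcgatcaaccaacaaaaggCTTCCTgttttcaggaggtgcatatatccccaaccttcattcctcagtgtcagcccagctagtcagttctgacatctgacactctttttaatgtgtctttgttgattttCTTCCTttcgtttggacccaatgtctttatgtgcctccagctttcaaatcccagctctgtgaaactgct

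The loci of the genes that mark DN cells by their RNA did not set the DN sort apart in chromatin. A gene locus is here the sum of the peaks whose nearest protein-coding start is that of the gene, within 100 kb. Il2ra, which encodes the CD25 chain of the IL-2 receptor, had 94 events in DN, 65 in DP, 64 in CD4 and 60 in CD8 sorted cells, that is levels of 18.5, 27.9, 23.6 and 24.8. The DN level over all series was thus the lowest of the sorts, at 0.661 of the DP level (95% interval 0.478 to 0.923), and over the 5 DN series it ran from 11.5 to 25.1. The ratios to CD4, 0.782 (0.565 to 1.09), and to CD8, 0.743 (0.533 to 1.05), had intervals that included 1. Within series 4000 the order of levels was lost, with ratios of 0.978 to DP (0.564 to 1.66), 1.02 to CD4 and 0.998 to CD8, and without series 32000 the ratio to DP was 0.741 (0.528 to 1.05). With each cell thinned to 1000 counts the ratios were lower, at 0.34 to DP (0.151 to 0.697), 0.42 to CD4 (0.179 to 0.936) and 0.561 to CD8 (0.228 to 1.41). Part of the difference from DP lay in a peak 5.51 kb upstream of the Il2ra start, with 26 events in DN, 29 in DP, 8 in CD4 and 13 in CD8 cells, and a ratio to DP of 0.412 (0.232 to 0.722). At the Il2ra promoter the DN level was instead above that of DP, with 16 against 4 events and a ratio of 1.68, but the interval, 0.591 to 7.53, included 1, and the ratios to CD4 and CD8 were 1.04 and 0.923.

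Notch1, the receptor that starts the T cell program, had levels of 12.4 in DN, 12.4 in DP, 9.94 in CD4 and 13.6 in CD8 cells. Hes1, a transcriptional repressor switched on by Notch, had levels of 11.6, 9.87, 9.94 and 11.6 in the same order. Every interval of the ratios of these 2 loci included 1, but with all peaks, overlapping ones too, Hes1 over DP was 2.05 (1.38 to 3.22), and within series 31000 Notch1 over CD4 was 3.76 (1.04 to 23.9). Ptcra, which encodes the pre-TCR alpha chain, had only 18 events in DN, 12 in DP, 3 in CD4 and 4 in CD8 cells, which is below the 100 events required of a tested locus, and its ratios were 0.678 (0.313 to 1.56), 2.82 (0.935 to 17.0) and 1.95 (0.705 to 8.69). Without the cells that stood apart, its ratio to CD4 was 5.62 (1.27 to 343). The cells are therefore called by their sort and not by these markers. The Cd8a and Cd8b1 loci, shown next, were lower than in the DP and CD8 sorts, which carry CD8 by their labels.

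Cd8a and Cd8b1, which encode the 2 chains of CD8, had few open peaks in DN cells. At Cd8a there were 41 events in DN, 71 in DP, 20 in CD4 and 54 in CD8 cells, and at Cd8b1 54, 79, 20 and 63 events. The level of Cd8a in DN was 8.06, close to the 7.36 of CD4 cells and far from the 30.5 of DP and 22.3 of CD8 cells. The ratios were 0.266 to DP (0.176 to 0.394) and 0.362 to CD8 (0.235 to 0.552) for Cd8a, and 0.314 (0.217 to 0.448) and 0.408 (0.278 to 0.596) for Cd8b1. The peak upstream of Cd8a, whose window is printed above, was open in 9.71% of DN, 26.7% of DP, 7.29% of CD4 and 25.3% of CD8 cells. The DN level at Cd8b1 was below that of DP in both series that hold the 2 sorts, with ratios of 0.496 in series 4000 and 0.23 in series 31000, where 2 events in DN stood against 7 in DP. The Cd8 genes were not closed in all DN cells: 30.9% of them had at least 1 Cd8a or Cd8b1 peak open, against 62.9% of DP, 33.3% of CD4 and 62.6% of CD8 cells.

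A peak in an intron of Cd8b1, 10.5 kb from its start, was open in 16 DN, 19 DP and 9 CD8 cells but in 0 of 96 CD4 cells. With 3 counts in place of 0 in the CD4 sort, the DN level was 2.85-fold higher, a value that leaves out the counting error of the DN count. In this peak the DN sort was thus unlike the CD4 sort although both lack CD8. Cd4 itself had 35 events in DN, 23 in DP, 26 in CD4 and 34 in CD8 cells. Its level was 6.88 in DN, the lowest of the sorts, but only the ratio to CD8, 0.489 (0.296 to 0.809), had an interval under 1.

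**Figure D1:**
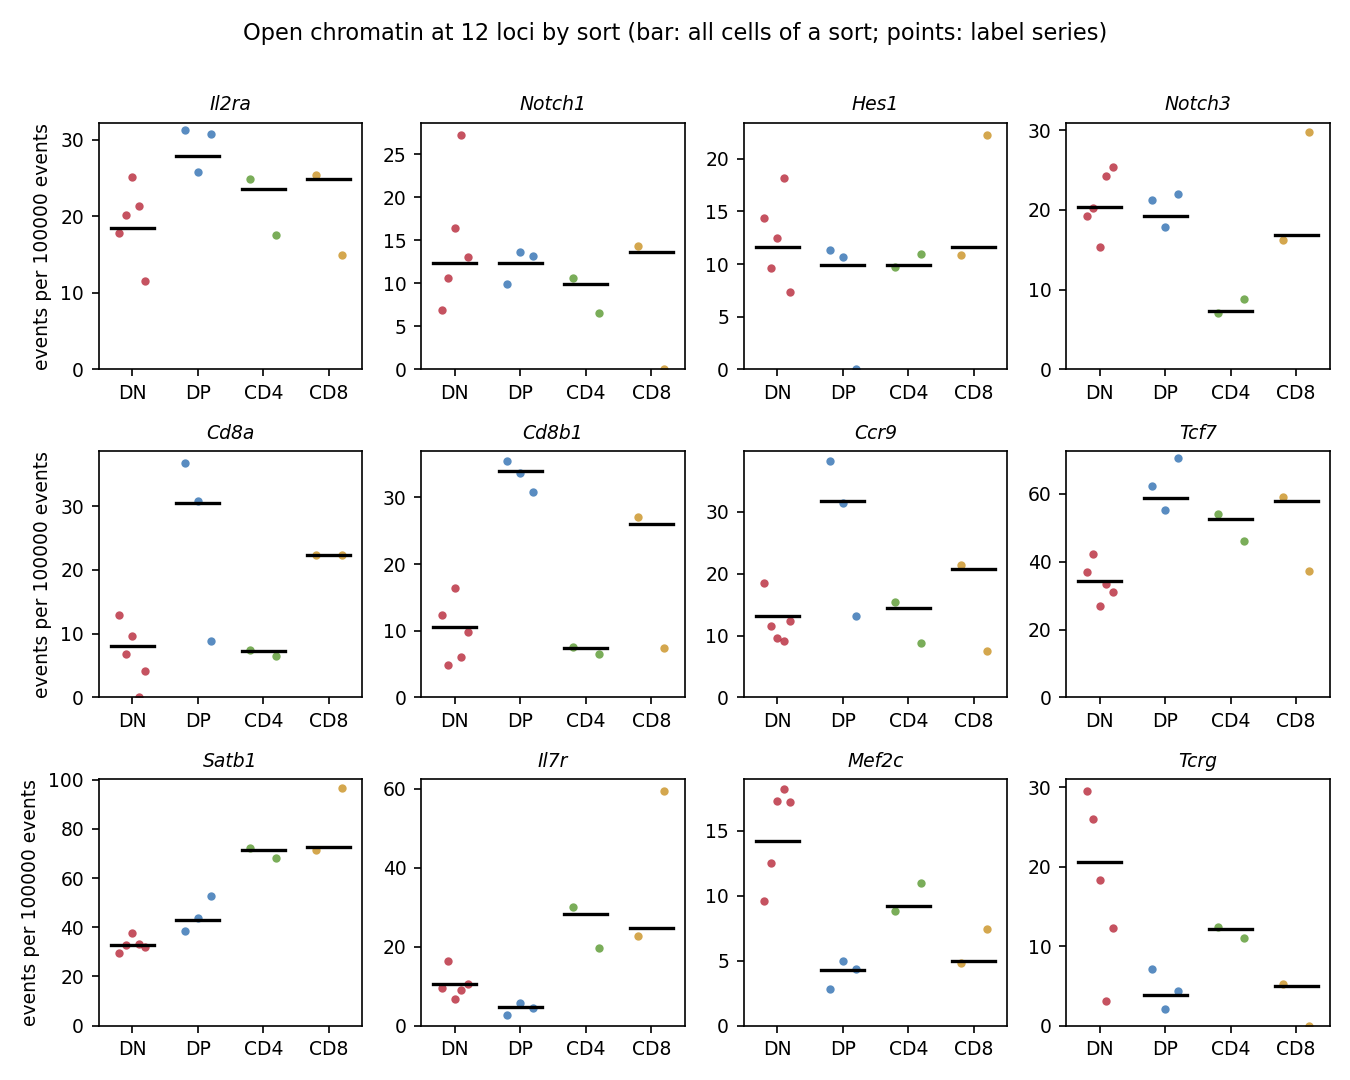
Levels of open chromatin (events per 100000 events, y axis) at 12 loci in the DN, DP, CD4 and CD8 sorts; bars show all cells of a sort and points the series of label numbers in ascending order from left to right. Cd8a and Cd8b1 are low in DN and CD4 cells, Ccr9 is highest in DP cells, Il7r is highest in CD4 and CD8 cells, and Mef2c and Tcrg are highest in DN cells, while the Il2ra, Notch1 and Hes1 bars lie closer together and the Tcrg point of DN series 31000, at 3.04, rests on 1 event.

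Across the table, a difference of 2-fold or more was the exception. Of 7475 peaks with at least 50 events over the 4 sorts, 308 (4.12%) were 2-fold or more higher in DN than in DP cells and 532 (7.12%) were 2-fold or more lower. Against CD4 cells these counts were 439 (5.87%) and 383 (5.12%), and against CD8 cells 231 (3.09%) and 388 (5.19%). Only 4 peaks (0.0535%) were 2-fold higher than in each of the other 3 sorts, whereas 66 (0.883%) were 2-fold lower than in each. Of 4034 gene loci with at least 100 events, 1 (0.0248%) was higher and 3 (0.0744%) were lower by this rule. Against DP alone, 140 loci (3.47%) were higher and 94 (2.33%) lower. Against CD4 cells 116 (2.88%) were higher and 63 (1.56%) lower, and against CD8 cells 48 (1.19%) and 57 (1.41%). The DN cells had 48.32% of their events in the tested peaks, against 56.28% in DP, 49.93% in CD4 and 52.03% in CD8 cells, and so the median ratio over the tested peaks was under 1 against each sort, at 0.868, 0.967 and 0.93 (log2 of -0.21, -0.05 and -0.10). For gene loci it was 0.936, 0.978 and 0.958. Ratios are read against these medians. With scaling by the median ratio, chosen after seeing the data, 9 peaks were 2-fold higher and 50 were 2-fold lower than in each other sort. Since the DN sort holds the most events, a peak that is high in DN cells passes the minimum of events more easily than one that is low in them.

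Where a peak lay mattered for which sorts it separated. Peaks centered within 2 kb of a start were 67.4% of those tested but 37.0% of the peaks higher in DN than in DP and 31.8% of those lower. They made up 15.2% of the 66 peaks lower than in each other sort, of which 57.6% lay more than 20 kb from a start, against 16.8% of all tested peaks. The peaks higher in DN than in CD8 cells went the other way, with 75.3% within 2 kb of a start. The DN cells thus differed from DP cells mostly at distal sites, and their few gains over CD8 cells lay mostly at promoters.

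The peak with the clearest gain in DN cells was that in the Vmp1 intron beside Mir21a, whose nearest protein-coding start is that of Tubd1, 31.8 kb away (chr11:86585003-86589002). Vmp1 encodes a membrane protein needed for autophagy, and miR-21, whose hairpin lies within the bounds of Vmp1, is a microRNA known from activated and transformed lymphocytes. The peak was open in 44 DN, 1 DP, 7 CD4 and 6 CD8 cells, or 25.1% of DN cells (18.9 to 32.2), 0.862% of DP, 7.29% of CD4 and 6.59% of CD8 cells. The ratio of levels was 13.6 to DP (3.43 to 814), 3.17 to CD4 (1.5 to 8.83) and 3.26 to CD8 (1.48 to 10.0). DN cells of all 5 label series had it open, 9, 9, 9, 2 and 15 cells in the order of the series. When each cell was thinned to 1000 counts, 17 DN, 0 DP, 2 CD4 and 0 CD8 cells kept it.

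The 3 other peaks that were 2-fold higher than in each sort did not keep that side within the shallow series 31000. They lay at the promoter of Klf5, a Krüppel-like transcription factor, with 37, 5, 7 and 5 events in DN, DP, CD4 and CD8 cells, at an intergenic site 37.6 kb from the start of Atf7ip, a partner of a histone methyltransferase, with 41, 7, 7 and 4 events, and in an intron of Plekha2 with 43, 8, 6 and 9 events. By the rule for naming peaks, which asks for the same side in series 4000 and in series 31000, the Vmp1 intron peak was followed by peaks at Tex14, Mrpl55, Tnfrsf8, Ikbip, Ccnd2, Per1, Mllt10, Zmynd8 and Kyat1. Ccnd2 encodes the cell cycle regulator cyclin D2, and its promoter peak was open in 33 DN, 6 DP, 10 CD4 and 6 CD8 cells, with ratios of 2.36 (1.04 to 7.36), 1.70 (0.848 to 4.01) and 2.45 (1.08 to 7.64). Mllt10, a partner of the histone methyltransferase DOT1L, had 35, 3, 11 and 5 events at its promoter and a ratio to DP of 4.65 (1.68 to 27.2). An intron of Tnfrsf8, which encodes CD30, had 33, 8, 2 and 8 events, and its ratio was largest against CD4 cells, at 7.15 (2.25 to 75.8). Each named peak higher in DN cells, other than that in the Vmp1 intron, had an interval that reached 1 in at least 1 comparison.

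Of the 66 peaks lower in DN than in each other sort, 26 kept their side in series 4000 and in series 31000, and the 10 named by the rule had their nearest starts at Stt3b, Trub1, Pgpep1l, Nfia, Herpud2, Arid2, St6galnac3, Bhlhb9, Vangl2 and Ets1. In series 31000, a locus with 0 events in every sort had ratios of 0.69 to DP, 1.39 to CD4 and 0.408 to CD8. These came from the 0.5 events added to each count and from depth. A side kept there against DP or CD8 can thus rest on no event, as at Trub1 with ratios of 0.69 and 0.408. The peak in an intron of Ets1, an ETS factor of lymphoid cells, had 8 events in DN, 9 in DP, 18 in CD4 and 15 in CD8 cells, with ratios of 0.410, 0.245 and 0.261. The intergenic peak assigned to Stt3b, whose start is 161381 bp away, had 7, 14, 25 and 14 events and that assigned to Trub1 had 8, 17, 24 and 13. In these 3 peaks the DN sort had the fewest events although it gave the most events overall.

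The following peaks of the 66 are outside the rule and were picked for their genes after the values were seen. The intergenic peak printed above for Rasgrp1, which encodes the exchange factor that couples the TCR to Ras, had 6 events in DN, 28 in DP, 12 in CD4 and 18 in CD8 cells, and ratios of 0.104, 0.278 and 0.167. A second Ets1 intron peak had 7, 19, 11 and 13 events. A peak in an intron of Bcl11b, the zinc finger factor of T lineage commitment, had 11, 18, 17 and 19 events, and an intergenic peak 379858 bp from the start of Satb1, a chromatin organizer, had 11, 16, 26 and 14. An intron of Bach2, a repressor of effector genes, had 15, 18, 18 and 15 events. An intron of Cd44, which encodes an adhesion receptor, had 13, 22, 14 and 24 events, and a peak 58.6 kb from Tnfaip3, an inhibitor of NF-kappaB, had 9, 25, 10 and 10. The DN sort had the lowest level in each of these peaks by the way they were chosen.

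**Figure D2:**
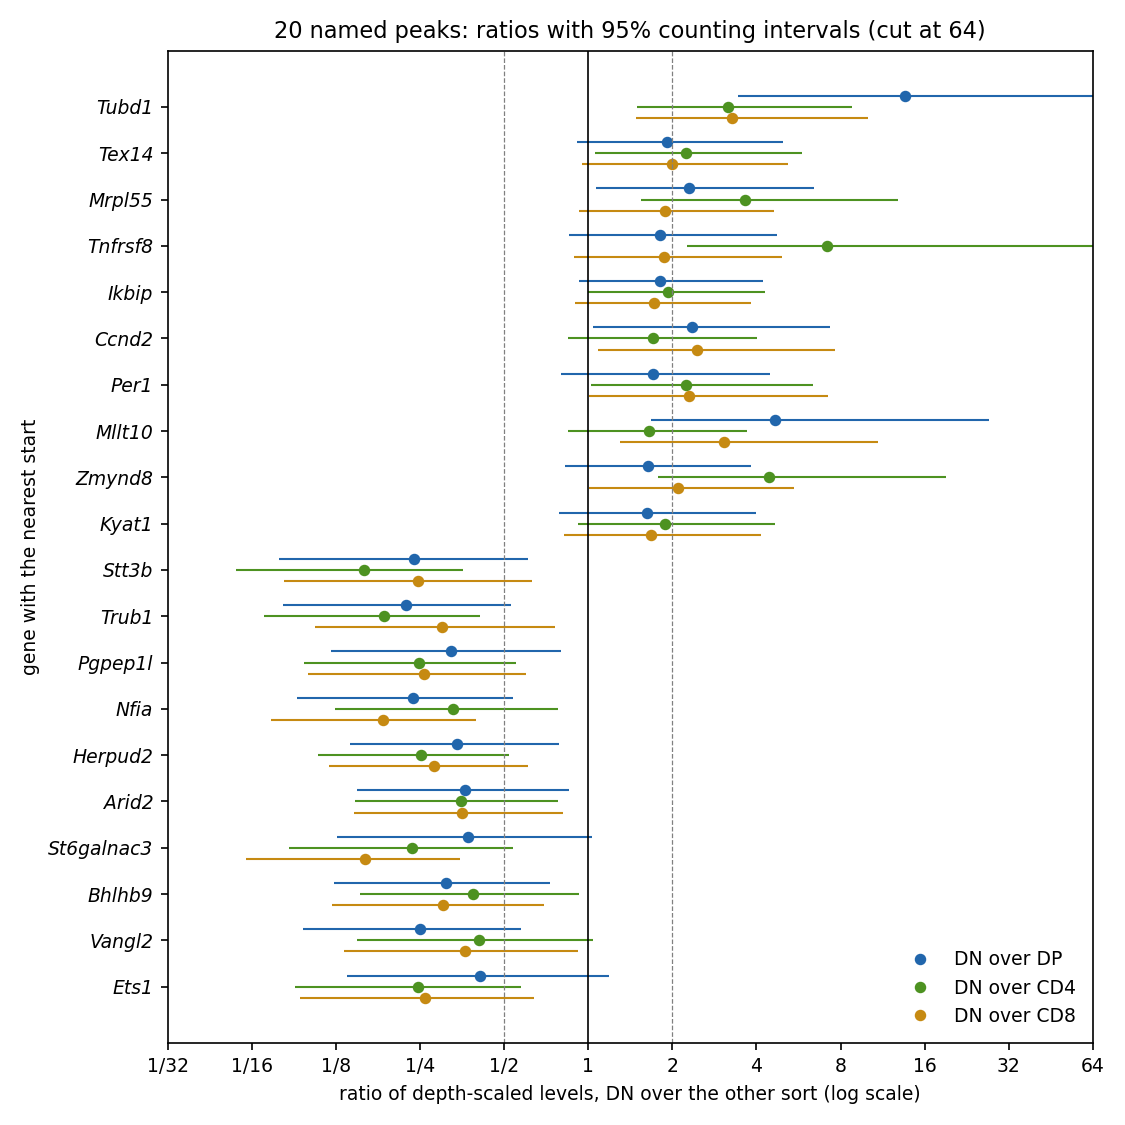
Ratios of the DN level to the DP, CD4 and CD8 levels (x axis, log scale) for the 20 peaks named by the rule, labeled by the gene with the nearest start; lines are exact 95% counting intervals and dashed lines mark 2-fold. The peak nearest to Tubd1, in the Vmp1 intron, reaches 13.6 against DP, and each other peak higher in DN cells has an interval that reaches 1 in at least 1 comparison.

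The Tcrg locus, which encodes the gamma chain of the gamma-delta TCR, was more open in DN cells than in the other sorts over all label series. Its 11 peaks, between the first and last segments (chr13:19178024-19352756), held 105 events in DN, 9 in DP, 33 in CD4 and 12 in CD8 cells, that is levels of 20.6, 3.86, 12.1 and 4.96. The ratios were 5.09 to DP (2.71 to 12.0), 1.68 to CD4 (1.14 to 2.59) and 4.01 to CD8 (2.28 to 8.31), and without the cells that stood apart they were 5.00, 1.77 and 3.94. The DN level ranged from 12.3 to 29.5 in 4 of the 5 series and was lower in series 31000, where it was 3.04 from 1 event. Over the DP series it ran from 2.15 to 7.08. The ratio to DP was 7.51 in series 4000, and in series 31000, with 1 event in each of the 2 sorts, it was 0.69. The ratio to CD4 was 1.49 in series 4000 and 0.378 in series 31000, where CD4 cells had 5 events and the opposite order held.

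Within the locus, the peak near Tcrg-C2, printed above, was open in 22 DN cells but in 1 DP, 0 CD4 and 1 CD8 cell. Its ratio was 6.87 to DP (1.63 to 416) and 7.13 to CD8 (1.69 to 432). With 3 counts in place of 0, the DN level was 3.92-fold that of CD4. The peak near the variable segment Trgv2 had 15 events in DN, 0 in DP, 4 in CD4 and 2 in CD8 cells. A peak near Tcrg-C1 had 16, 1, 3 and 1 events. By contrast, the peak near Tcrg-V4 had 24, 6, 16 and 6 events, with a level in CD4 cells, 5.89, above the 4.72 of DN cells. Its ratios to DP and CD8 had intervals that included 1. The difference between DN cells and the other sorts was thus not spread evenly over the locus and was widest near Tcrg-C2, where a second peak (chr13:19303305-19307304) nevertheless had 1 event in DN and 5 in CD4 cells.

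At least 1 Tcrg peak was open in 64 of 175 DN cells, or 36.6% (29.4 to 44.2), against 7.76% of DP, 28.1% of CD4 and 13.2% of CD8 cells. At least 2 Tcrg peaks were open in 31 DN, 0 DP, 4 CD4 and 0 CD8 cells. Deeper cells show more: DN cells with an open Tcrg peak had a median total of 8323 counts and those without one 2451. After thinning to 1000 counts, 10.3% of DN cells (6.21 to 15.8) and 0.862% of DP cells (0.0218 to 4.71) still had an open Tcrg peak. Of the 64 DN cells with a Tcrg peak, 27 also had a Cd8a or Cd8b1 peak and 37 did not, while 27 had Cd8 peaks only and 84 neither. Since detection depends on depth and doublets were not called, these counts cannot show whether the 2 kinds of locus open in the same or in separate cells.

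The sums over the other T cell receptor loci were not higher in DN cells. Tcra/Tcrd peaks held 475 events in DN, 263 in DP, 278 in CD4 and 226 in CD8 cells, and the ratio to DP was 0.827 (0.710 to 0.966). Single Tcra/Tcrd peaks could differ from the sum, as 1 near Trav1 did with 13 events in DN and 0 in the other sorts. With 3 counts in place of each 0, its DN level was 1.99-fold that of DP, 2.31-fold that of CD4 and 2.06-fold that of CD8 cells. Tcrb had 326, 163, 194 and 185 events, with ratios of 0.915, 0.896 and 0.837, all with intervals that included 1.

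**Figure D3:**
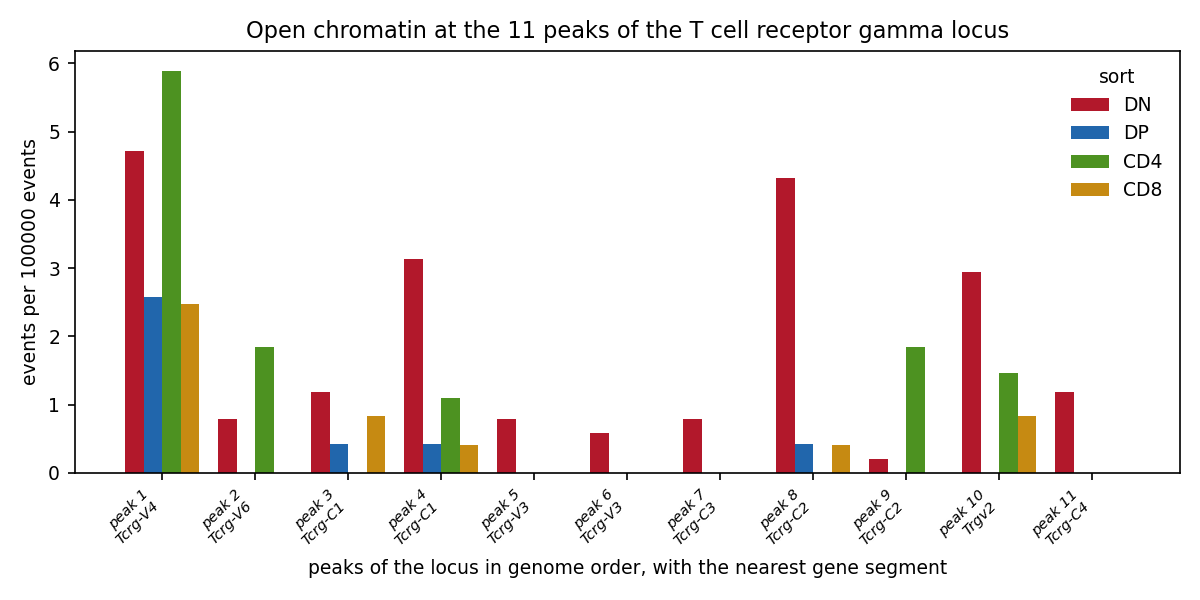
Levels (events per 100000 events, y axis) of the 11 peaks of the Tcrg locus, ordered along the locus by the nearest segment, in the 4 sorts. DN cells are highest at all but 3 of them, with the widest gap near Tcrg-C2 (22, 1, 0 and 1 events), and CD4 cells are highest near Tcrg-V4, near Tcrg-V6 and at the second peak near Tcrg-C2.

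The genes of the Notch and pre-TCR pathway were mixed. Of the 12 on the list, 6 reached 100 events, of which 1, Notch3, was above and 2, Il2ra and Myc, were below all 3 other sorts, against 15.8% and 26.6% of all tested loci. Their median ratios were 0.893 to DP, 1.19 to CD4 and 0.947 to CD8, beside 0.936, 0.978 and 0.958 over all loci. Notch3, a receptor induced in DN cells by pre-TCR and Notch signals, had 104 events in DN, 45 in DP, 20 in CD4 and 41 in CD8 cells, and was 2.72-fold higher than in CD4 (1.71 to 4.73). The Notch3 intron peak printed above carried much of this, with 36, 17, 1 and 16 events and a ratio to CD4 of 13.0 (3.24 to 780). It stayed near 1 against DP and CD8 cells, at 0.956 and 1.05. Dntt, which encodes the polymerase that adds bases at recombined junctions, had 76, 67, 30 and 31 events and 0.519 of the DP level (0.369 to 0.733). At Rag2, a subunit of the recombinase and too sparse to be tested, 6 events in DN stood against 22 in DP, a ratio of 0.132 (0.0414 to 0.318).

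Among genes of the early progenitor program that commitment shuts off, Mef2c and Erg were more open in DN cells, and others, such as Cd44 and Kit, were not. Only 3 of the 16 on the list reached 100 events, Mef2c and Erg above all 3 other sorts and Cd44 below them, where 15.8% and 26.6% of all tested loci were, and the events of all 16 summed to ratios of 1.27 (1.08 to 1.51), 1.26 (1.08 to 1.47) and 1.20 (1.02 to 1.41), beside median ratios of 0.936, 0.978 and 0.958 over all loci. Mef2c, a MADS-box factor of lymphoid and myeloid progenitors, had 72 events in DN, 10 in DP, 25 in CD4 and 12 in CD8 cells. Its ratios were 3.16 (1.69 to 7.17), 1.52 (0.964 to 2.53) and 2.76 (1.54 to 5.78), and the DN level lay between 9.59 and 18.2 in every series, above all DP series, which had 2.83 to 5.01. Erg, an ETS factor of stem and early T cells, had 111, 34, 34 and 21 events and was 2.47-fold higher than in CD8 cells (1.57 to 4.22). Among the sparse loci of the list, Lmo2, a bridging factor of progenitor complexes, had 55, 8, 20 and 16 events with a ratio to DP of 2.99 (1.49 to 7.66), and Bcl11a, a zinc finger factor of lymphoid progenitors, had 30, 3, 5 and 5 events with 3.99 (1.42 to 23.5). Kit, the receptor of the earliest thymic precursors, had 29, 14, 17 and 16 events and ratios of 0.932, 0.900 and 0.850, whose intervals included 1. Cd44 had 89, 64, 74 and 70 events and ratios of 0.636, 0.641 and 0.604, and Cd34, with 22, 8, 20 and 18 events, had ratios of 1.21, 0.586 and 0.578, whose intervals included 1. The summed levels of myeloid and dendritic cell genes, with ratios of 1.32 (1.06 to 1.65), 1.16 (0.953 to 1.42) and 1.3 (1.05 to 1.62), and of B cell genes, with 1.31 (0.922 to 1.92), 1.56 (1.10 to 2.30) and 1.06 (0.767 to 1.5), were also above those of the other sorts. Their part in the result was not tested.

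Factors of T cell identity were mostly less open in DN than in DP and CD8 cells, with 13 and 11 of 15 tested below, where 59.0% and 57.2% of all tested loci were. Against CD4 cells 8 were below and 7 above, where 52.9% and 47.1% of all tested loci were. The median ratios were 0.772 to DP, 0.954 to CD4 and 0.85 to CD8, beside 0.936, 0.978 and 0.958 over all loci. Of the 15, 8 were below all 3 other sorts (Tcf7, Lef1, Bcl11b, Satb1, Ets1, Runx1, Ikzf1 and Ikzf3), and 2, Runx3 and Tcf12, were above them, where 26.6% and 15.8% of all tested loci were. For Runx1 against CD8, the ratio of 0.993 was above the median of all loci. Tcf7, which encodes the factor TCF-1 that Notch induces, had 175 events in DN, 137 in DP, 143 in CD4 and 140 in CD8 cells, at levels of 34.4, 58.8, 52.6 and 57.9. The DN level was 0.585 of that of DP (0.465 to 0.737), 0.653 of CD4 (0.521 to 0.821) and 0.594 of CD8 (0.473 to 0.748). No DN series, at 27.0 to 42.3, overlapped the DP series, at 55.1 to 70.4, though the lowest CD8 series, at 37.2, lay within the DN range. Satb1 had 166, 100, 194 and 176 events and was lowest in DN, with 0.457 of the CD4 level (0.369 to 0.565), 0.449 of the CD8 level (0.361 to 0.558) and 0.759 of the DP level. Bcl11b had 0.532 of the DP level (0.410 to 0.693) but 0.954 of that of CD4.

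Runx3, which represses Cd4 in CD8 cells and acts in innate and gamma-delta lymphocytes, had 218 events in DN, 57 in DP, 66 in CD4 and 94 in CD8 cells. Its levels were 42.8 in DN and 38.9 in CD8, with 24.5 in DP and 24.3 in CD4, and its ratios were 1.74 to DP (1.3 to 2.39), 1.75 to CD4 (1.33 to 2.36) and 1.10 to CD8 (0.862 to 1.42). The DN and CD8 sorts were thus alike within counting error at this locus and both stood above DP and CD4. An intergenic peak 40.1 kb upstream of Runx3 (chr4:135078527-135082526) had 42, 6, 7 and 15 events and was open in 24.0% of DN cells. Tcf12, which encodes the E protein HEB, had 129, 38, 42 and 54 events and ratios of 1.54 (1.08 to 2.30), 1.63 (1.15 to 2.38) and 1.13 (0.821 to 1.59). Within series 31000 the order was reversed, with a level of 18.2 from 6 events in DN and 44.0 from 10 events in DP cells.

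Of 16 genes that mark the DP stage, the 13 tested were all lower in DN than in DP cells, where 59.0% of all tested loci were, and 4 of them were lower by 2-fold or more, among them Cd8a, Cd8b1 and Ccr9, where 2.33% of all loci were. Of the 3 too sparse to be tested, Ly6d, with 26 events in DN and 8 in DP, and Cd6, with 31 and 8, had ratios to DP of 1.43 (0.655 to 3.80) and 1.70 (0.798 to 4.47). Ccr9, a chemokine receptor of thymocytes, had 67 events in DN, 74 in DP, 39 in CD4 and 50 in CD8 cells, at 0.415 of the DP level (0.294 to 0.585), 0.912 of the CD4 level and 0.636 of the CD8 level (0.435 to 0.938). Endou, which encodes an endoribonuclease, had 82, 63, 21 and 33 events, with 0.595 of the DP level, 2.05 times that of CD4 and 1.17 times that of CD8, the last with an interval that included 1. Arpp21, which encodes an RNA-binding phosphoprotein, had 155, 88, 61 and 53 events, 0.805 of the DP level and 1.35 and 1.38 times those of CD4 and CD8.

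Genes of mature SP cells were lower in DN than in CD4 cells for all 12 tested and lower than in CD8 cells for 10 of 12, where 52.9% and 57.2% of all tested loci were. Above DP were 8 of 12, where 41.0% of all tested loci were. The median ratios were 1.07 to DP, 0.754 to CD4 and 0.729 to CD8, beside 0.936, 0.978 and 0.958 over all loci. Il7r, the alpha chain of the IL-7 receptor, which DN and SP cells use and DP cells lack, had 54 events in DN, 11 in DP, 77 in CD4 and 60 in CD8 cells. Its ratios were 2.17 (1.16 to 4.77), 0.375 (0.259 to 0.537) and 0.428 (0.291 to 0.629), which puts DN cells between DP and SP cells. S1pr1, the receptor for thymic egress, had the same order with 115, 29, 101 and 89 events and ratios of 1.79 (1.20 to 2.83), 0.608 (0.461 to 0.802) and 0.614 (0.462 to 0.820). A distal peak 84.4 kb upstream of S1pr1 was open in 23 DN, 1 DP, 18 CD4 and 12 CD8 cells. In series 4000 the DN ratios to DP were 1.19 for Il7r and 1.05 for S1pr1.

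The CD3 chains and proximal signaling genes, all 10 tested, had median ratios of 0.632 to DP, 0.903 to CD4 and 0.800 to CD8. Below all 3 sorts were 5 of them, among which Cd3g, Lck, Lat and Lcp2, and above all 3 was 1, Zap70, where 26.6% and 15.8% of all tested loci were. Cd247, the zeta chain of the TCR complex, had 0.506 of the DP level (0.380 to 0.676), and Lck, the kinase bound to the coreceptors, had 0.527 (0.374 to 0.745). Of the genes of gamma-delta and IL-17 cells, only 1 of 11 reached 100 events, with ratios of 0.378 to DP, 1.99 to CD4 and 0.959 to CD8. Il17a and Il17f had no peak of their own. The events of all 11 summed to ratios of 0.984 to DP (0.799 to 1.22), 1.18 to CD4 (0.958 to 1.47) and 1.31 to CD8 (1.04 to 1.67). The loci named next were too sparse to be tested. Sox13 had 51 events in DN, 12 in DP, 18 in CD4 and 9 in CD8 cells, with a ratio to CD8 of 2.58 (1.31 to 6.23). Il1r1 had 26, 1, 14 and 5 events. Zbtb16, which encodes the factor PLZF of innate-like T cells, had 36, 4, 30 and 17, so that it was 3.72-fold above DP (1.48 to 15.9) and not above CD4, at 0.639 (0.384 to 1.08).

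Loci above all 3 other sorts in both label series were led by AL607142.1, a gene model (chr4:120064996-120093973) whose 12 peaks all lie in the body of Hivep3, which encodes a zinc finger protein. It had 80 events in DN, 15 in DP, 18 in CD4 and 15 in CD8 cells, and was the 1 locus 2-fold higher than in each sort, at 2.38 (1.40 to 4.57), 2.32 (1.41 to 4.21) and 2.47 (1.45 to 4.74). The DN level was 13.5 to 17.2 over its 5 series. Etv6, an ETS family repressor of hematopoietic progenitors, had 107, 19, 24 and 34 events, with ratios of 2.53 (1.57 to 4.45), 2.34 (1.52 to 3.88) and 1.48 (1.01 to 2.27). Cables1, which encodes a binding partner of cyclin-dependent kinases, had 121, 9, 21 and 37 events and ratios of 5.86 (3.14 to 13.8), 3.02 (1.92 to 5.15) and 1.54 (1.07 to 2.31), and its DN level of 18.3 to 36.6 in every series was above that of each DP series, at 2.83 to 4.4. One peak in an intron of Cables1, 92.6 kb from its start, was open in 39 DN and 0 DP cells. With 3 counts in place of 0, its DN level was 5.96-fold that of DP. Adamts17, a metalloprotease gene, had 133, 30, 27 and 41 events and ratios of 2.01 (1.36 to 3.13), 2.59 (1.73 to 4.14) and 1.53 (1.08 to 2.25). Aurkb, which encodes the mitotic kinase aurora B, had 55, 13, 19 and 14 events, and only its ratio to CD4, 1.52 (0.903 to 2.76), had an interval that included 1. Beside AL607142.1, Etv6 and Cables1, the 12 named loci were Pde2a, Lhfpl2, Wdr43, Adamts17, Mex3b, Aurkb, Mef2c, Cacna1b and Erg, with a smallest ratio of 1.48 to 1.74.

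The 12 named loci below all 3 sorts were Gm14085, Sgpp1, Ldhb, Rnf145, Ccnb1, Ndufs8, Vangl2, Wdfy1, Bpgm, Znrf1, Nme7 and Rbbp7. Sgpp1, which encodes a phosphatase of sphingosine-1-phosphate, had 30 events in DN, 30 in DP, 35 in CD4 and 40 in CD8 cells and ratios of 0.458, 0.459 and 0.358. Ldhb, a subunit of lactate dehydrogenase, had 34, 40, 35 and 38 events and ratios of 0.390 (0.239 to 0.631), 0.519 (0.314 to 0.856) and 0.426 (0.260 to 0.694). Ccnb1, which encodes the mitotic cyclin B1, had 27, 30, 27 and 32 events and ratios of 0.413, 0.534 and 0.402. In none of these 3 did a DN series lie above the lowest pooled level of the other sorts.

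The loci that differed most from a single sort are given for description, since they were found by ranking. The widest gain over DP was at Chst11, a chondroitin sulfotransferase gene, with 107 events in DN, 5 in DP, 29 in CD4 and 24 in CD8 cells, an 8.95-fold higher level (4.07 to 30.8). It was 9.43-fold in series 4000 and 2.07-fold in series 31000, where 4 events in DN stood against 1 in DP. Tmem108, the fifth of this ranking, had 119, 8, 37 and 20 events. Its ratio to DP was 4.58 in series 4000 and, with 1 event in each of the 2 sorts, 0.69 in series 31000. The widest gain over CD4 was at Cdh15, a cadherin gene, with 63, 20, 6 and 12 events and a ratio of 5.22 (2.44 to 15.9). The widest loss against DP was at Xrra1, with 40 events in DN, 73 in DP, 11 in CD4 and 41 in CD8 cells. Against CD4 it was at Pde11a, a cyclic nucleotide phosphodiesterase gene, with 38, 19, 67 and 45 events and a ratio of 0.305 (0.198 to 0.457), followed by Samhd1, which encodes a dNTP hydrolase, with 53, 14, 87 and 25 events and 0.326 (0.227 to 0.463).

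Loci that mark other cells which a CD4- CD8- gate could hold had events in every sort, and their part in the results was not tested. The summed level of 7 B cell genes was 23.8 in DN, 18.0 in DP, 15.1 in CD4 and 22.3 in CD8 cells. For 7 genes of natural killer and innate lymphoid cells it was 43.8, 41.6, 34.6 and 41.7, and for 11 of myeloid and dendritic cells 62.9, 47.6, 54.1 and 48.4. For 6 erythroid genes it was 9.04, 8.15, 5.89 and 5.79, and for 8 epithelial and stromal genes 35.6, 40.8, 38.3 and 35.5. All of these lists but the epithelial and stromal one thus had their highest level in DN cells, in part within counting error. For natural killer and innate genes the ratios were 1.05 (0.826 to 1.35), 1.26 (0.991 to 1.63) and 1.05 (0.826 to 1.34). For erythroid genes, too, every interval included 1. For B cell genes the intervals to DP and CD8 included 1, and for myeloid and dendritic genes that to CD4 did. Of defining genes, Ms4a1, Ncr1, Siglech, Hbb-bt, Hba-a1 and Krt5 had no peak of their own, Gata1 had peaks but no event in DN cells, and Cd79a and Psmb11 had 1 event. Blnk, an adaptor of B cell receptor signaling, had 12 events in DN and 0 in the other sorts. With 3 counts in place of each 0, its DN level was 1.83-fold that of DP, 2.14-fold that of CD4 and 1.90-fold that of CD8 cells.

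The RUNX and E-box words stood in different shares of the distal sites higher and lower in DN than in DP cells. Among all 62519 non-overlapping peaks, the central 300 bases held the RUNX word in 29.9%, the E-box word in 21.2%, the ETS word in 43.5%, the TCF/LEF word in 21.2% and the GATA word in 12.3%. Among the 2437 tested peaks over 2 kb from a start these shares were 44.2%, 31.5%, 56.7%, 28.7% and 13.5%. Of the 194 such peaks 2-fold higher in DN than in DP cells, 115 (59.3%) held the RUNX word and 34 (17.5%) the E-box word. Of the 363 that were 2-fold lower, 132 (36.4%) held the RUNX word and 157 (43.3%) the E-box word. The ETS word stood in 56.2% and 55.9% of these sites, the TCF/LEF word in 29.4% and 31.7% and the GATA word in 17.0% and 14.3%. Sites gained over DP cells were thus richer in the RUNX word and poorer in the E-box word than sites lost. Against CD4 cells the E-box word went the other way, in 134 of 247 (54.3%) sites higher in DN and 64 of 266 (24.1%) sites lower. In the Notch3 window printed above, which was open in 1 CD4 cell, it occurs 3 times.

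This order held when the peaks were picked in label series 4000 alone, with the E-box word in 17.8% of peaks higher and 36.7% of those lower than in DP, and in the other series alone, with 23.6% and 42.9%. For the RUNX word these shares were 56.4% and 36.9%, and 54.2% and 38.8%. A match of letters is a description and not a bound site. Base composition was similar in the peaks higher and lower than in DP, with 49.7% and 50.6% G or C, against 51.9% in all tested distal peaks.

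Without any choice of peaks, 31.6% of the DN events in tested distal peaks (31.3 to 32.0) fell in windows with the E-box word, compared with 35.7% in DP (35.2 to 36.2), 28.3% in CD4 (27.9 to 28.8) and 31.1% in CD8 cells (30.6 to 31.5). The 5 DN series had 31.1%, 31.6%, 32.4%, 29.1% and 32.2%, all below the 3 DP series, at 35.6% to 35.9%, and above both CD4 series, at 27.9% and 28.4%. The DN and CD8 ranges overlapped. After thinning, the shares were 31.2%, 35.9%, 27.7% and 30.3%. Over single cells the median was 31.5% in DN (range 19.8 to 39.0) and 36.0% in DP (19.6 to 46.3), so the sorts overlapped widely. For the RUNX word the DN share was 44.4%, 44.0% to 44.9% over the series, compared with 42.4% in DP, 42.1% to 42.6% over its series, 44.2% in CD4 and 44.8% in CD8 cells. This share set DP cells apart from the other 3 sorts and not DN cells from the rest.

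**Figure D4:**
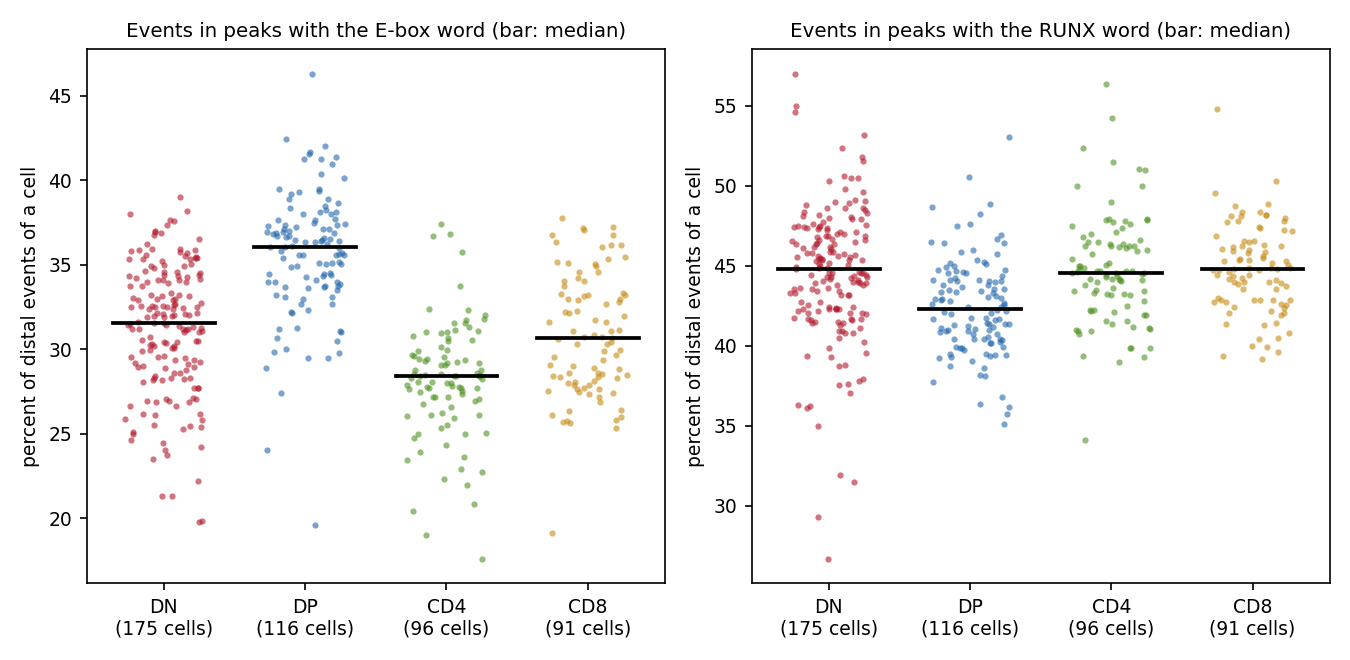
Share of a cell's events in distal tested peaks whose central window holds the E-box or the RUNX word (percent, y axis), with 1 point per cell and a line at the median of each sort. For the E-box word the DN median of 31.5% lies under the DP median of 36.0% and above the CD4 median of 28.4%, with wide overlap of single cells.

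Differences seen in one label series were looked for in the others. Of the tested peaks, 532 were 2-fold higher and 928 were 2-fold lower in DN than in DP cells of series 4000. In the cells of the other series, which had a part in the minimum of 50 events but not in the choice of direction, these sets had pooled ratios of 1.20 (1.15 to 1.26) and 0.707 (0.688 to 0.727), beside 0.858 for all tested peaks. Against CD4 cells the sets of 753 and 706 peaks had 1.12 (1.07 to 1.18) and 0.799 (0.763 to 0.837), beside 0.902. Against CD8 cells the sets of 420 and 753 peaks had 1.01 (0.899 to 1.13) and 0.894 (0.823 to 0.973), beside 0.932, so the part of the gains and losses that recurred was small there. In series 4000, where they were chosen, the sets against DP had ratios of 2.94 and 0.33, so most of the size of these differences did not recur.

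For single cells of the other series, the share of events in the peaks gained over DP, among events in those gained or lost, was a median of 37.0% in 145 DN cells (22.4 to 49.1) and 25.5% in 53 DP cells (15.4 to 42.3). It was 36.4% in 41 CD4 and 36.2% in 14 CD8 cells, so these sites set DP cells apart from all others rather than DN cells from the rest. Of the 145 DN cells, 20 were above the highest DP cell and 1 was at or under the DP median. The medians of the 4 DN series scored were 36.9%, 39.0%, 35.5% and 36.9%. Thinning to 1000 counts left the pooled shares at 36.6% in DN, 25.8% in DP, 36.9% in CD4 and 36.4% in CD8 cells.

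**Figure D5:**
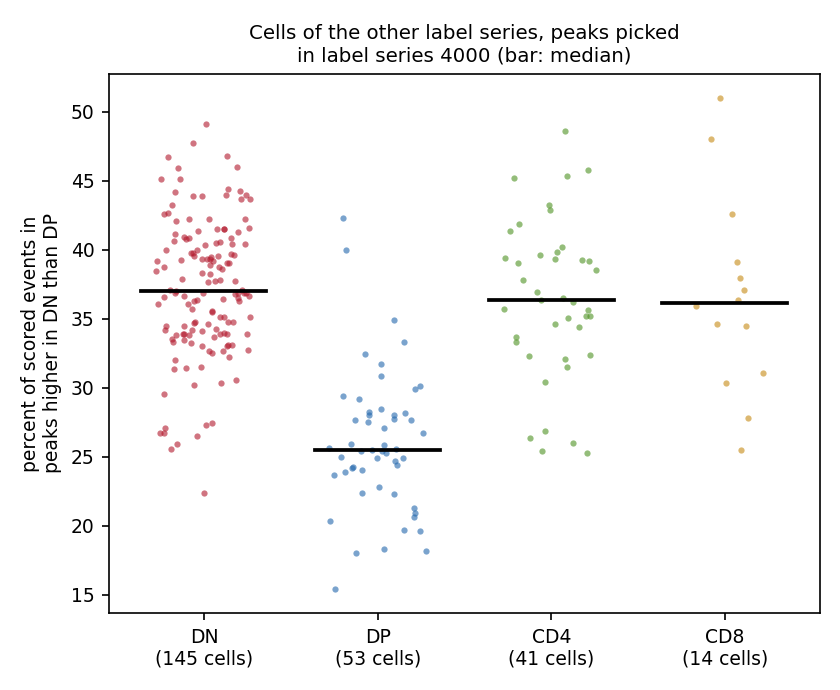
Share of events in peaks gained over DP cells in series 4000 among events in peaks gained or lost there (percent, y axis), for cells of the other label series, with 1 point per cell. DN cells, with a median of 37.0%, lie mostly above DP cells, with 25.5%, and at the height of CD4 and CD8 cells.

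DN cells had slightly fewer open peaks in common with one another than cells of the other sorts did. After thinning to 1000 counts, the median share of open peaks in common between 2 cells was 1.74% for pairs of DN cells, compared with 2.03% for pairs of DP, 1.91% for pairs of CD4 and 1.82% for pairs of CD8 cells. Pairs of a DN and a DP cell, at 1.78%, shared slightly more than pairs of DN cells did, and pairs of a DN cell with a CD4 or a CD8 cell had 1.72% and 1.70%. The 5th and 95th percentiles for pairs of DN cells were 1.03% and 2.57%, which overlap those of every other kind of pair. The pairs of DN cells span 5 label series and those of the other sorts fewer. Within series 4000 the median was 1.8% for DN, 2.05% for DP, 1.92% for CD4 and 1.84% for CD8 pairs, and within series 31000 it was 1.91%, 2.37%, 2.24% and 2.02%. Within the other DN series it was 1.73%, 1.72% and, in series 32000, 2.10%, so not every DN series was below the other sorts. The share of DN cells with an open Tcrg peak was 65.6%, 50.0%, 46.7%, 4.35% and 20.7% in the 5 label series, and that with a Cd8a or Cd8b1 peak was 46.9%, 28.1%, 50.0%, 8.70% and 22.4%, in series whose median totals differed as given above.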

How the data were processed

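Open chromatin was measured by scATAC-seq in single thymocytes of mice. According to the study's methods, the authors used ATAC-pipe to trim adapters and Bowtie2 to align reads. Picard took out duplicates, and MACS2 was run on the merge of all cells, with a filter on Q-value. The authors deposited the counts of reads per peak and cell. Tool versions are not given in the sources used here. The submitters' notes name GRCm38.p5 without saying for which reads, and the peaks fit that build: 27.874% of peak centers lay within 2 kb of a start and 9.405% after a shift by 100000 bp.

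Of 1988 columns, 1446 were not used, among them unsorted and other cells. Cells with 1000 or more counts were kept, counts were limited to 1 per cell and peak, and overlapping peaks were reduced to 62519. Peaks needed 50 events over the 4 sorts and loci 100. Peaks within 100 kb were given to the nearest start of a protein-coding gene (GENCODE vM21), and, other than planned, peaks inside antigen receptor loci were given to no gene. Ratios use a prior of 0.5 events and intervals use none. A fold against a sort at 0 was set against 3 counts and leaves out the counting error of the DN count, so it is not a lower bound. Intervals at 95% are exact conditional binomial for ratios and exact binomial for shares. PCR reads are not independent molecules, so they cover counting error only. The procedure was tested on simulated data. Doublets were not called. Python 3.11.15, numpy 2.4.6, scipy 1.17.1, pandas 2.3.3, matplotlib 3.10.9, pysam 0.24.0 and samtools 1.23.1 were used.

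The named peaks (10 each way) and loci (12 each way) have the highest smallest ratio, or the lowest largest ratio, among those on the same side of 1 against all 3 sorts also in label series 4000 and 31000. In series 31000 the prior can by itself put a ratio under 1 to DP or CD8, or over 1 to CD4, so the same side there can rest on no event. The members and gene lists were chosen with earlier results of these data known. Alternatives changed the limit per cell, the overlap of peaks, the depth per cell, the minimum counts and events, the distance to a start, the label series and the scaling. Some members of the lists are counted but not named, and 1 further word that was searched is not reported here.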

Additional observations from a re-analysis of the deposited data

How the results depend on the processing

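The counts of peaks and loci past 2-fold against all 3 sorts were small and moved with most choices. For peaks higher in DN cells (4 as reported), the count was 35 with raw counts, 70 with each cell thinned to 1000 counts, 0 with at least 100 events, 4389 with no filter on events, 32 in label series 4000 and 231 in series 31000. For peaks lower (66), it was 287 when thinned, 2 with at least 100 events, 4324 with no filter, 276 in series 4000 and 701 in series 31000. For loci higher (1), it was 17 with raw counts, 8 with all peaks, 16 when thinned, 0 with peaks within 2 kb of the start, 8 in series 4000 and 63 in series 31000. For loci lower (3), it was 11 with raw counts, 10 with all peaks, 68 when thinned, 0 within 2 kb, 58 in series 4000 and 217 in series 31000. Fewer events per peak in the thinned and single-series tables give a wider spread of ratios. Leaving out each DN label series in turn gave 4 to 9 peaks higher, 69 to 97 lower, 1 to 4 loci higher and 2 to 9 lower, with 9 peaks higher and 9 loci lower without series 1000 and 4 loci higher without series 32000.

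Marker ratios mostly moved less than their counting intervals. The exceptions were, with all peaks, Hes1 over DP at 2.05. With thinned cells they were Il2ra over DP at 0.34 and over CD4 at 0.42, Ptcra over DP at 3.19 and over CD4 at 0.924, and Hes1 over CD4 at 0.685. Within 2 kb of the start Il2ra over DP was 1.68 and Notch1 over CD8 was 1.97. In series 4000 Il2ra over DP was 0.978. In series 31000 Il2ra over CD4 and over CD8 were both 1.22, Notch1 was 1.87 over DP, 3.76 over CD4 and 7.75 over CD8, Ptcra over DP was 2.07 and Hes1 over DP was 8.97. Without one DN series, Il2ra over DP stayed at 0.602 to 0.741. The cause of these shifts was not tested.

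Chosen after seeing the data, scaling by the median ratio gave 9 peaks higher and 50 lower, with 1 locus higher and 3 lower. Leaving out the cells that stood apart gave 4 and 63 peaks and 1 and 3 loci. No paired analysis was possible because each cell has a number of its own and no number pairs cells across sorts; values within the label series shared by the sorts are given above.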
